A study of Homo sapiens with 4 samples.

Results

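A set of 10 genes that canonical WNT signalling is known to switch on, most of which feed back on the same pathway, was followed in HCT116 cells with and without a knockdown of ARID1A. HCT116 is an established human colon carcinoma line that carries a stabilising mutation in CTNNB1, the gene of beta-catenin. ARID1A makes a subunit of SWI/SNF, a complex that moves nucleosomes. The 2 groups were HCT116 cells labelled shARID1A, with the genotype ARID1A knockdown, and HCT116 cells labelled CTR, with the genotype control, with 2 libraries each. All cells were grown in RPMI1640 with serum. The labels name no other agent or time, and the hairpin's sequence, the control construct and the use of a clone or a pool were not given in the sources used here. By its design text, the study asked how ARID1A relates to immune functions. The 10 genes were AXIN2, NKD1, NOTUM, RNF43, ZNRF3, LGR5, ASCL2, SP5, TCF7 and LEF1. Each symbol matched 1 of the 60766 features in the authors' tables, where expression is given as fragments per kilobase of transcript and sequencing depth (FPKM).

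In canonical WNT signalling, ligands bind Frizzled receptors with LRP co-receptors, the complex that destroys beta-catenin is held back, and beta-catenin joins TCF/LEF factors on DNA. Several genes switched on this way act as brakes. RNF43 and ZNRF3 remove Frizzled receptors from the membrane, R-spondins bound to LGR receptors take these ligases away, NOTUM strips the lipid from WNT ligands, NKD1 binds Dishevelled and AXIN2 rebuilds the destruction complex. In intestinal crypts this output marks stem and progenitor cells, and in colon carcinoma it is often fixed in the on state by mutation.

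Of the 10 genes, 7 had a mean of at least 1 FPKM over the 4 libraries and could be tested, and LGR5, ASCL2 and LEF1 did not. RNF43, NOTUM, SP5 and AXIN2 fell in the knockdown by 2.10-fold to 3.59-fold, and TCF7 fell by 1.20-fold. ZNRF3 and NKD1 did not pass the test, and no member rose. These 5 falls among 7 tested genes stand beside 18.9% of all 13605 tested features that fell, 18.2% that rose and 37.1% called in either direction, at a Benjamini-Hochberg adjusted p below 0.05 in limma. Of the 5, SP5 reached the filter mean of 1 FPKM only through the control libraries. The median log2 change of the 7 genes was -0.96, against 0.00 over all tested features. Groups that do not overlap were common. Of all tested features, 36.5% had both shARID1A libraries below both controls and 35.8% had both above. All log2 changes are shARID1A minus control of log2(FPKM + 1), and the added 1 makes changes of low genes look smaller. In RNA from whole cultures, fewer cells with a gene on and less RNA per cell cannot be told apart.

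The target and the identity of the cells were checked first. ARID1A itself (GRCh38, chromosome 1, bases 26693236 to 26782104) measured 7.05 and 6.13 FPKM in shARID1A cells and 11.1 and 11.4 FPKM in control cells, so the knockdown cells kept 58.7% of the control level (log2 change -0.69, SE 0.0774, limma adjusted p = 0.00438). Of 10 epithelial and colon markers, EPCAM, KRT8, KRT18, KRT19, CDH1, CLDN4 and CLDN7 were well above 1 FPKM, while the colonic genes CDH17, VIL1 and LGALS4 stayed below 1 FPKM in every library. These epithelial genes were not steady between the groups: 4 of the 7 rose, 2 fell and CDH1 was not called, and without control replicate 1 or 2 only 1 fell. EPCAM, a cell adhesion protein gene, fell to 147 and 141 FPKM in shARID1A cells, against 312 and 312 FPKM in control cells (log2 change -1.11, limma adjusted p = 3.63e-04), and CLDN7 fell by 0.21 on the log2 scale. CLDN4 rose by a log2 of 1.02, KRT8 by 0.70, KRT19 by 0.58 and KRT18 by 0.42. These marker counts stand beside 18.9% of all tested features that fell and 18.2% that rose. The part of the epithelial shift in the WNT gene values was not tested. All 8 endothelial markers, 9 of 10 fibroblast markers and 9 of 10 leukocyte markers were below 1 FPKM in every library. The fibroblast exception was the collagen gene COL1A1, at 5.89 and 6.15 FPKM in shARID1A cells and 4.81 and 3.58 FPKM in control cells (log2 change 0.44, limma adjusted p = 0.0518, and 0.0322 to 0.175 over the alternatives). Of the leukocyte markers, the pan-leukocyte gene PTPRC was at 0.00592 FPKM in shARID1A replicate 1 and listed at 0 in the other 3 libraries. The leukocyte markers summed to 3.38 and 4.004 FPKM in shARID1A cells and 7.88 and 6.28 FPKM in control cells, mostly CD68, a lysosomal protein gene at 2.55 and 3.39 FPKM in shARID1A cells and 6.58 and 5.25 FPKM in control cells. The share of summed FPKM from the mitochondrial genome was 6.04% and 5.65% in shARID1A cells and 4.35% and 4.29% in control cells, and 5 members still fell after rescaling without those transcripts. Whether replicates came from separate cultures is not stated, so p-values measure the spread between these libraries, which may be technical.

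The sequences upstream of SP5 and RNF43 are shown because both genes fell and they were the members with a RefSeq promoter window that reached beyond the gene as the authors' tables place it. SP5 lies on the plus strand and its 250 bases before the start site are chr2:170715087-170715336. RNF43 lies on the minus strand and the 189 bases of its window that lie upstream of the gene in the tables are chr17:58417596-58417784, both on GRCh38.p14. Capitals mark the letters CTTTGA, or TCAAAG where the motif reads on the opposite strand, a core of the sequence that TCF/LEF factors bind.
SP5: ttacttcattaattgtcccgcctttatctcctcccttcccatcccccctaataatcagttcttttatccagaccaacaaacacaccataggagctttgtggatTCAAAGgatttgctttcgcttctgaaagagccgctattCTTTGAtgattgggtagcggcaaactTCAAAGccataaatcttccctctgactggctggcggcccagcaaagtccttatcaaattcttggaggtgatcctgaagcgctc
RNF43: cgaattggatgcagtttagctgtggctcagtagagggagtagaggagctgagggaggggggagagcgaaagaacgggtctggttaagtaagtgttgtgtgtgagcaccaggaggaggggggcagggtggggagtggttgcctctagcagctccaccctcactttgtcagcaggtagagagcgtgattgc
The SP5 window held the motif at 3 places that do not overlap, with first bases at -147, -109 and -83 relative to the start site. The place at -109 read forward and continued to CTTTGAT, and the other two read on the opposite strand. In all 35116 RefSeq windows of 250 bases, which include several per gene for many genes, 11.2% held CTTTGA on either strand, 0.0655% held it at least 3 times and 2.26% held CTTTGAT. RefSeq windows were matched for 4 members, 6 windows in all, and those of RNF43, TCF7 and LEF1 held no CTTTGA. A match of letters is a description and not a measured binding site.

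**Figure D1:**
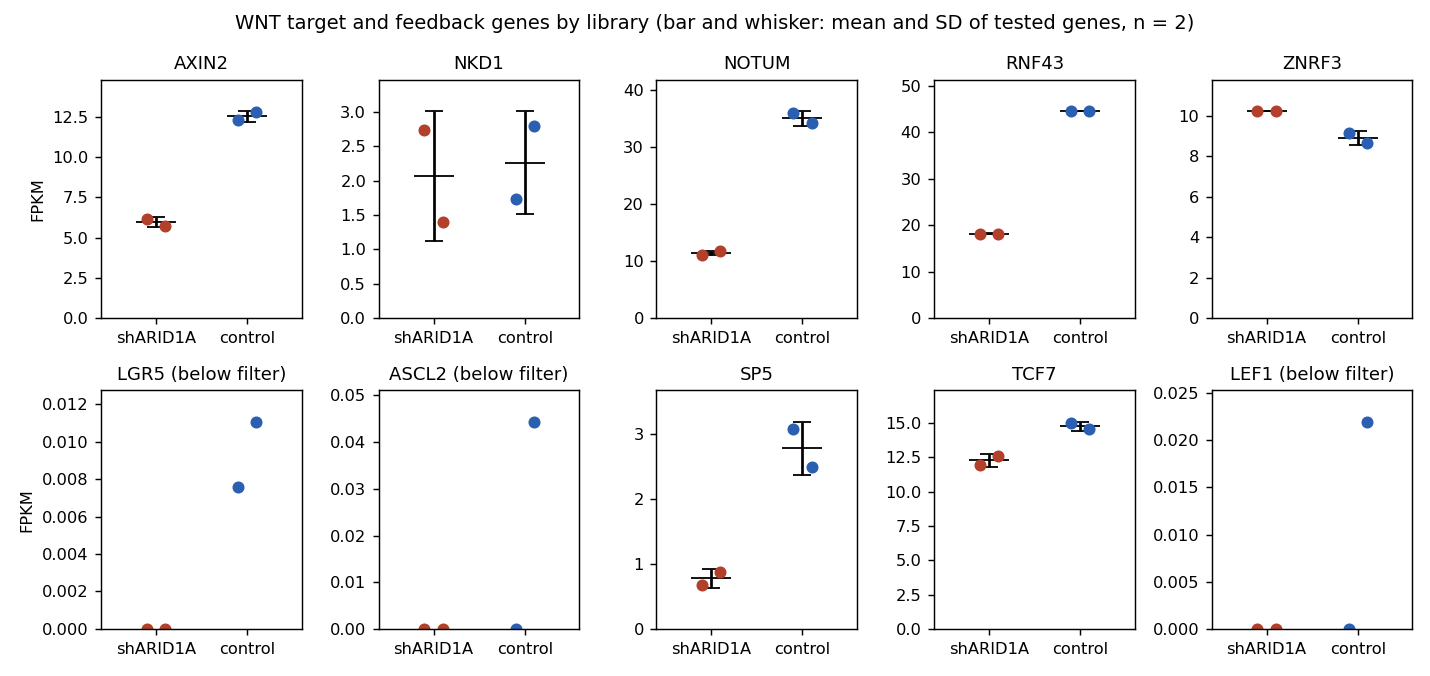
FPKM of each gene in each library, with shARID1A libraries in red on the left and control libraries in blue on the right of each panel; every panel has its own linear axis from 0, and bars with whiskers give the mean and SD (n = 2) for tested genes only. RNF43, NOTUM, AXIN2, SP5 and TCF7 show separate groups with the shARID1A libraries lower, ZNRF3 shows them higher, and NKD1 shows overlapping groups. Of all tested features, 36.5% had separate groups with shARID1A lower and 35.8% with shARID1A higher.

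Of the 2 membrane ligases, RNF43 fell and ZNRF3 did not pass the test. RNF43, on chromosome 17 (bases 58352500 to 58417595), measured 18.2 and 18.2 FPKM in shARID1A cells and at 44.5 and 44.6 FPKM in control cells. The knockdown libraries were both far below the control libraries, and replicates were almost equal. The means of 18.2 ± 0.0353 FPKM in shARID1A cells and 44.6 ± 0.0496 FPKM in control cells (SD, n = 2 each) differed 2.45-fold, a log2 change of -1.25 (SE 0.0381, limma adjusted p = 3.20e-04). ZNRF3, the paralog with the same task, lies on chromosome 22 from 28883572 to 29057488. It was at 10.3 and 10.2 FPKM in shARID1A cells and at 9.15 and 8.67 FPKM in control cells. Both knockdown libraries were above both control libraries, but the log2 change of 0.18 (SE 0.0546) did not pass the test (limma adjusted p = 0.0553). It passed with median-ratio scaling (adjusted p = 0.0468) and quantile normalization (0.0356), and over all 14 alternatives its adjusted p ran between 0.0356 and 0.198. RNF43 stood 1.78 and 1.77 times above ZNRF3 in the shARID1A libraries and 4.87 and 5.14 times above it in the control libraries. The 2 ligases together reached 28.5 and 28.4 FPKM in shARID1A cells and 53.7 and 53.3 FPKM in control cells.

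Without a stated strand setting, reads of RNF43 and of features that overlap it cannot be told apart. SUPT4H1, a transcription elongation factor gene, shares 594 bases with the end of RNF43 and was at 138 and 136 FPKM in shARID1A cells and 142 and 156 FPKM in control cells (limma adjusted p = 0.146). The noncoding RNA TSPOAP1-AS1 spans most of RNF43 and was at 0.975 and 1.34 FPKM in shARID1A cells and 1.87 and 1.64 FPKM in control cells (limma adjusted p = 0.0980). Their log2 changes were -0.12 and -0.35, and their part in the RNF43 value was not tested. Apart from SKP1, described with TCF7, every other feature that overlaps a member was below 1 FPKM in every library.

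NOTUM, a secreted carboxylesterase that inactivates WNT ligands, fell the most among the tested members on this scale. It lies on chromosome 17 (bases 81952507 to 81961840) with 11.1 and 11.7 FPKM in shARID1A cells, against 35.9 and 34.1 FPKM in control cells. The groups did not overlap, and the knockdown mean was 32.7% of the control mean. The means were 11.4 ± 0.407 FPKM in shARID1A cells and 35.0 ± 1.29 FPKM in control cells (SD, n = 2 each), with a log2 change of -1.53 (SE 0.0519, limma adjusted p = 3.63e-04). Only 51 of the 13605 tested features, 0.375%, had a lower log2 change than NOTUM, and 93 features, 0.684%, had a lower one than RNF43. No other feature overlaps NOTUM in the tables.

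AXIN2, the inducible scaffold of the destruction complex, lies on chromosome 17 from 65528563 to 65561648. It was at 6.17 and 5.73 FPKM in shARID1A cells and at 12.3 and 12.8 FPKM in control cells, with no overlap between groups. Means of 5.95 ± 0.308 FPKM in shARID1A cells and 12.5 ± 0.344 FPKM in control cells (SD, n = 2 each) gave a log2 change of -0.96 (SE 0.0613, limma adjusted p = 0.00117). The other cytoplasmic inhibitor, NKD1, on chromosome 16 (bases 50548396 to 50649249), measured 2.74 and 1.40 FPKM in shARID1A cells and at 1.73 and 2.79 FPKM in control cells. The groups overlapped, and replicates lay farther apart than the group means of 2.07 FPKM in shARID1A cells and 2.26 FPKM in control cells. Its log2 change of -0.10 (SE 0.272, limma adjusted p = 0.791) became 0.13 without control replicate 2 and 0.22 without shARID1A replicate 2, so no direction can be given. NKD2, its paralog, was at 9.66 and 11.9 FPKM in shARID1A cells and 6.83 and 6.11 FPKM in control cells. NKD2 was chosen after its values were seen; it rose by a log2 of 0.65 (limma adjusted p = 0.0132), a call lost without control replicate 1 (0.0524) or 2 (0.0718).

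Of the transcription factors, SP5, a zinc finger factor known to be a direct WNT target, fell the most in proportion. It lies on chromosome 2 from 170715337 to 170718078. SP5 was at 0.670 and 0.879 FPKM in shARID1A cells, against 3.07 and 2.49 FPKM in control cells. Both knockdown libraries were below 1 FPKM and both controls above 2 FPKM. SP5 therefore reached the filter mean of 1 FPKM only through the control libraries. With the filter at 0.1 FPKM, which both groups exceeded, its limma adjusted p was 0.00783. Means of 0.775 ± 0.148 FPKM in shARID1A cells and 2.78 ± 0.408 FPKM in control cells (SD, n = 2 each) differed 3.59-fold, with a log2 change of -1.09 (SE 0.132, limma adjusted p = 0.00532). With a pseudocount of 0.1 the log2 change was -1.72. At the recovered depth these levels rest on about 87.9 and 115 fragments in shARID1A cells and about 367 and 312 fragments in control cells, if the longest annotated transcript of 2033 bases is used. The 3 copies of CTTTGA printed above belong to this gene.

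TCF7 encodes a TCF/LEF factor whose forms with and without the beta-catenin binding end are not told apart by a gene-level value. It lies on chromosome 5 (bases 134114681 to 134151865) with 12.0 and 12.6 FPKM in shARID1A cells, against 15.0 and 14.5 FPKM in control cells. The groups did not overlap, but the step between them was small, at 83.1% of the control mean (log2 change -0.25, SE 0.0520, limma adjusted p = 0.0222). The call was lost without control replicate 1 (adjusted p = 0.106) or 2 (0.0790), without shARID1A replicate 1 (0.0859) and with no filter (0.0607). TCF7 shares 2931 bases with SKP1, a ubiquitin ligase subunit gene at 433 and 440 FPKM in shARID1A cells and 393 and 387 FPKM in control cells. Reads in that stretch cannot be told apart, and their part in the TCF7 value was not tested.

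LEF1, LGR5 and ASCL2 were at or near 0 in both groups. LEF1, the TCF/LEF factor that colon carcinomas often gain, was listed at 0 in both shARID1A libraries and at 0 and 0.0220 FPKM in the control libraries. ASCL2, a bHLH factor of intestinal stem cells, was listed at 0 in both shARID1A libraries and at 0 and 0.0444 FPKM in the control libraries. LGR5, an R-spondin receptor and stem cell marker, was listed at 0 in both shARID1A libraries and at 0.00759 and 0.0111 FPKM in the control libraries. The values above 0 correspond to about 5.00 fragments each for LEF1 and ASCL2 and to about 2.26 and 3.41 fragments for LGR5. A change in these 3 genes was not detectable at this depth, and with no filter their limma adjusted p values were 0.637, 0.551 and 0.586.

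**Figure D2:**
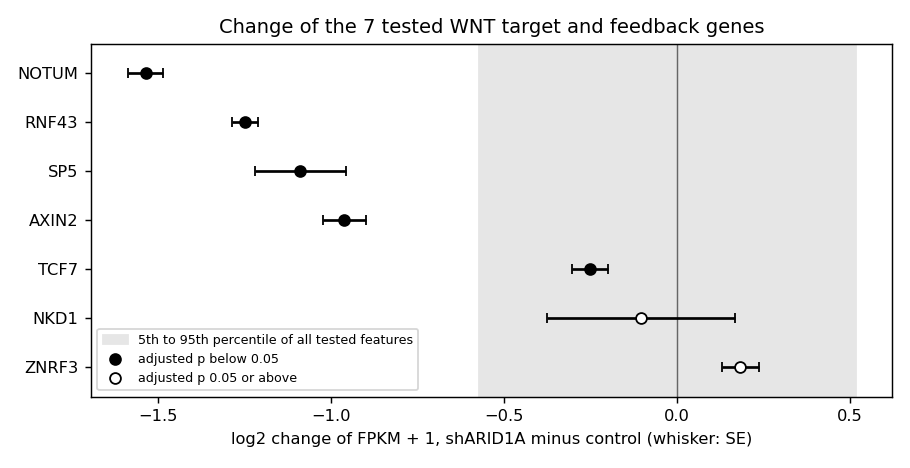
Log2 change of FPKM + 1, shARID1A minus control, of the 7 tested genes (points) with SE (whiskers); filled points passed a limma adjusted p below 0.05 and the grey band holds the 5th to 95th percentile of all tested features, from -0.57 to 0.52. NOTUM, RNF43, SP5 and AXIN2 lie left of the band, and TCF7, NKD1 and ZNRF3 lie within it.

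The order of levels, which FPKM allows because it is per transcript length, differed between the groups. In shARID1A cells it ran RNF43 (18.2 FPKM), TCF7 (12.3), NOTUM (11.4), ZNRF3 (10.3), AXIN2 (5.95), NKD1 (2.07) and SP5 (0.775). In control cells it ran RNF43 (44.6 FPKM), NOTUM (35.0), TCF7 (14.8), AXIN2 (12.5), ZNRF3 (8.91), SP5 (2.78) and NKD1 (2.26). Neighbours in each order had ranges that did not overlap, except SP5 and NKD1 in control cells. The 10 genes summed to 61.1 and 60.7 FPKM in shARID1A cells and to 122 and 120.0 FPKM in control cells. RNF43 alone made up 29.8% and 29.9% of that sum in shARID1A cells and 36.6% and 37.2% in control cells.

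The lists of other pathway genes had medians nearer to 0 than the members. Members and lists were chosen with earlier results of these data known, so this contrast is a description and not a test. The counts of every list below stand beside 18.9% of all tested features that fell and 18.2% that rose. Of 18 tested genes for beta-catenin, its destruction complex and Dishevelled, 2 fell and 4 rose, with a median log2 change of 0.06. CTNNB1 was at 133 and 122 FPKM in shARID1A cells and 121 and 120 FPKM in control cells (limma adjusted p = 0.249). CSNK1E, a casein kinase that acts on Dishevelled, rose to 75.7 and 78.7 FPKM in shARID1A cells, against 65.1 and 64.4 FPKM in control cells (limma adjusted p = 0.00954). TNKS, a tankyrase that marks axins for degradation, fell to 6.73 and 6.24 FPKM in shARID1A cells, against 8.04 and 7.98 FPKM in control cells. DVL2, a Dishevelled, fell to 22.3 and 22.5 FPKM in shARID1A cells, against 25.6 and 28.4 FPKM in control cells. CSNK1A1, CSNK1D and DVL1 were the other genes that rose, each by a log2 of at most 0.17. With any 1 library left out, at most 1 gene of this list was called. CSNK1E was lost without control replicate 1 (adjusted p = 0.0617) or 2 (0.0685), TNKS without any library (0.0590 to 0.116) and DVL2 without all but control replicate 1 (0.0878 to 0.109).

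Among 16 tested TCF partners and cofactors, the median log2 change was 0.03. Of these, 4 fell and 1 rose, beside 18.9% and 18.2% of all tested features. TCF7L2, the TCF/LEF factor with the highest level here, rose to 71.4 and 70.5 FPKM in shARID1A cells, against 57.6 and 51.3 FPKM in control cells. Its log2 change was 0.38 (SE 0.0630, limma adjusted p = 0.0121), and the call was lost without shARID1A replicate 1 (0.0536) and with no filter (0.0623). TNIK, a kinase that binds TCF7L2, fell to 7.81 and 8.33 FPKM in shARID1A cells, against 14.9 and 12.8 FPKM in control cells (log2 change -0.71, limma adjusted p = 0.00546). TLE1, a Groucho corepressor, fell to 10.5 and 9.50 FPKM in shARID1A cells, against 13.4 and 14.0 FPKM in control cells, a call lost without control replicate 2 (adjusted p = 0.0606). TLE5 and HIPK2 were the other two that fell, by a log2 of -0.19 and -0.29. Neither call survived leaving out control replicate 1 (adjusted p = 0.0931 and 0.0671) or 2 (0.0903 and 0.110), and HIPK2 was also lost without shARID1A replicate 1 (0.0804) or 2 (0.0937).

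The receptors that RNF43 and ZNRF3 act on, their co-receptors and the LGR and R-spondin genes numbered 18, of which 10 were tested. Among these, 5 fell and 0 rose, beside 18.9% and 18.2% of all tested features. Their median log2 change was -0.34. Of the 18, 7 were below 1 FPKM in every library. FZD6, the Frizzled with the highest level, fell to 25.5 and 24.5 FPKM in shARID1A cells, against 34.6 and 34.7 FPKM in control cells (log2 change -0.45, SE 0.0421, limma adjusted p = 0.00273). FZD1 fell to 2.41 and 2.44 FPKM in shARID1A cells, against 3.72 and 3.82 FPKM in control cells. FZD2 fell to 6.86 and 6.66 FPKM in shARID1A cells, against 9.34 and 9.06 FPKM in control cells. The other two that fell were FZD5 (log2 change -0.34) and the co-receptor gene LRP5 (-0.34). LGR4, the LGR receptor that these cells do express, was at 3.15 and 2.93 FPKM in shARID1A cells and 3.86 and 3.55 FPKM in control cells (limma adjusted p = 0.0988). FZD6 alone of these 5 kept its call without each library in turn. Without control replicate 1 it was the only call of the list (adjusted p = 0.0567 for FZD1, 0.0534 for FZD2, 0.106 for FZD5 and 0.0526 for LRP5). FZD1 (0.0636), FZD5 (0.0807) and LRP5 (0.0640) were also lost without control replicate 2, and FZD5 without shARID1A replicate 1 (0.0717) or 2 (0.0905).

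Other textbook WNT targets moved both ways. Of 26 tested, 10 fell and 6 rose, beside 18.9% and 18.2% of all tested features. The list had a median log2 change of -0.10. CEMIP, a hyaluronan-binding protein gene, fell to 1.19 and 1.21 FPKM in shARID1A cells, against 5.88 and 6.30 FPKM in control cells (log2 change -1.69, SE 0.0812, limma adjusted p = 6.14e-04). ID2, an inhibitor of bHLH factors, rose to 505 and 544 FPKM in shARID1A cells, against 171 and 175 FPKM in control cells (log2 change 1.59, SE 0.0479, limma adjusted p = 3.20e-04). TBX3, a T-box repressor, rose to 9.78 and 9.27 FPKM in shARID1A cells, against 2.95 and 2.84 FPKM in control cells (log2 change 1.43, SE 0.0657, limma adjusted p = 5.38e-04).

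The 4 genes DKK1, SOX9, EPHB2 and CD44 were chosen after their values were seen, because they are feedback or crypt genes. Other targets of the same list fell too, namely MET (log2 change -1.40, limma adjusted p = 3.85e-04), JUN (-1.12, 5.00e-04), FGF9, VEGFA, ETS2 and L1CAM. The rest of the list did not fall, as 6 of its genes rose and 10 were not called. MYC rose by a log2 of 0.19 (limma adjusted p = 0.0205), and CCND1 was not called (0.293). EPHB3, a paralog of EPHB2, was at 3.70 and 3.15 FPKM in shARID1A cells and 2.935 and 2.15 FPKM in control cells (0.135, not called). DKK1, a secreted LRP antagonist, rose to 341 and 325 FPKM in shARID1A cells, against 167 and 174 FPKM in control cells (log2 change 0.96, limma adjusted p = 5.00e-04). SOX9, a crypt transcription factor, fell to 36.3 and 37.8 FPKM in shARID1A cells, against 76.6 and 74.2 FPKM in control cells (log2 change -1.01, limma adjusted p = 4.41e-04). EPHB2, an ephrin receptor of the crypt base, fell to 11.5 and 10.8 FPKM in shARID1A cells, against 16.2 and 15.0 FPKM in control cells (limma adjusted p = 0.00794). CD44 fell to 359 and 372 FPKM in shARID1A cells, against 451 and 453 FPKM in control cells (limma adjusted p = 0.00465). So the secreted antagonist DKK1 rose while the secreted enzyme NOTUM fell, and SOX9 fell by about as much as AXIN2. The calls of these 4 genes, like those of CEMIP, ID2 and TBX3, held without each library in turn.

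The median log2 change of 10 tested crypt stem cell genes was -0.11. Of the 10, 3 fell and 0 rose, beside 18.9% and 18.2% of all tested features. These were PROM1 (log2 change -0.52, limma adjusted p = 0.0151), RGMB (-0.44, 0.00922) and MEX3A (-0.32, 0.0242). Their calls depended on the libraries, since without control replicate 2 none of the 3 passed (adjusted p = 0.0552, 0.0542 and 0.0966). MEX3A was lost without any of the other 3 libraries as well (0.0510 to 0.101), and PROM1 without shARID1A replicate 1 (0.0505) or 2 (0.0597). Of 22 enterocyte and goblet cell genes only 5 were tested, with 2 falls and 1 rise. KRT20, a keratin of differentiated colonocytes, rose to 14.4 and 13.6 FPKM in shARID1A cells, against 2.01 and 2.42 FPKM in control cells (log2 change 2.22, SE 0.0868, limma adjusted p = 3.95e-04). CEACAM1 (log2 change -0.50) and DPP4 (-0.47) fell at limma adjusted p values of 0.0409 and 0.0198. Calls for DPP4 were lost without any 1 library (adjusted p of 0.0528 to 0.0923), and for CEACAM1 without all but shARID1A replicate 1 (0.0999 to 0.165).

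**Figure D3:**
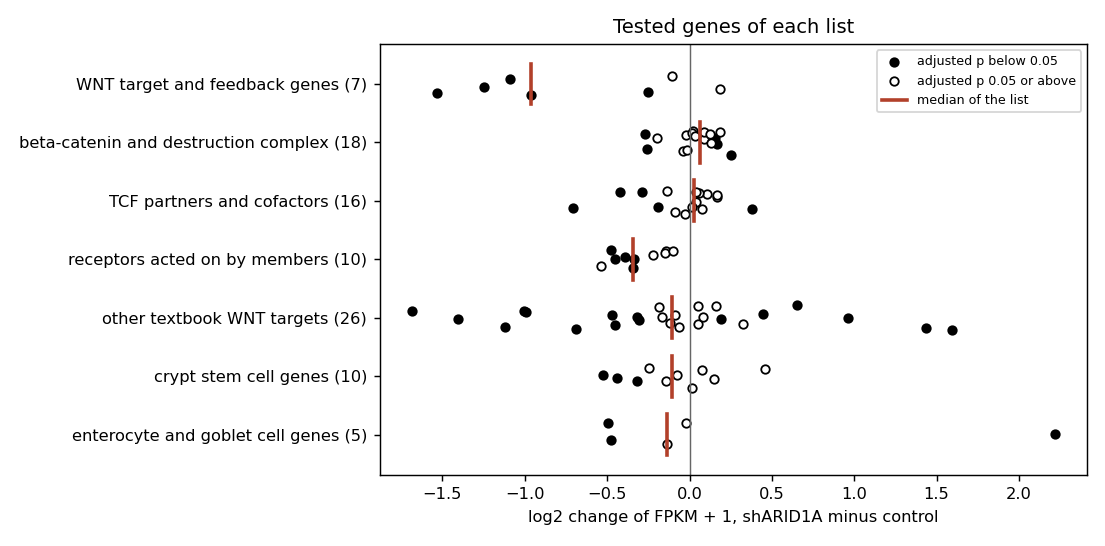
Log2 change of FPKM + 1, shARID1A minus control, of every tested gene in each list (1 point per gene, number tested in brackets, vertical scatter only for legibility); filled points passed a limma adjusted p below 0.05 and red bars mark list medians. The WNT target and feedback genes have a median of -0.96 and the receptors of -0.34, while the lists of destruction complex genes and TCF partners centre at 0.06 and 0.03. All lists were chosen with earlier results of these data known.

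The genes whose profile over the 4 libraries was nearest to that of NOTUM, by Euclidean distance between mean-centred log2(FPKM + 1) values, were SLC1A4, DSC2 and JAG1. SLC1A4, a neutral amino acid transporter gene on chromosome 2, was at 1.53 and 1.61 FPKM in shARID1A cells and 6.32 and 6.24 FPKM in control cells (distance 0.0530). DSC2, a desmosomal cadherin gene on chromosome 18, was at 2.95 and 2.89 FPKM in shARID1A cells and 10.0 and 9.79 FPKM in control cells (distance 0.0903). JAG1, a Notch ligand gene on chromosome 20, was at 6.80 and 6.54 FPKM in shARID1A cells and 22.7 and 21.3 FPKM in control cells (distance 0.0955). With 4 libraries in 2 groups, likeness of this kind mostly reflects a similar size of change.

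**Figure D4:**
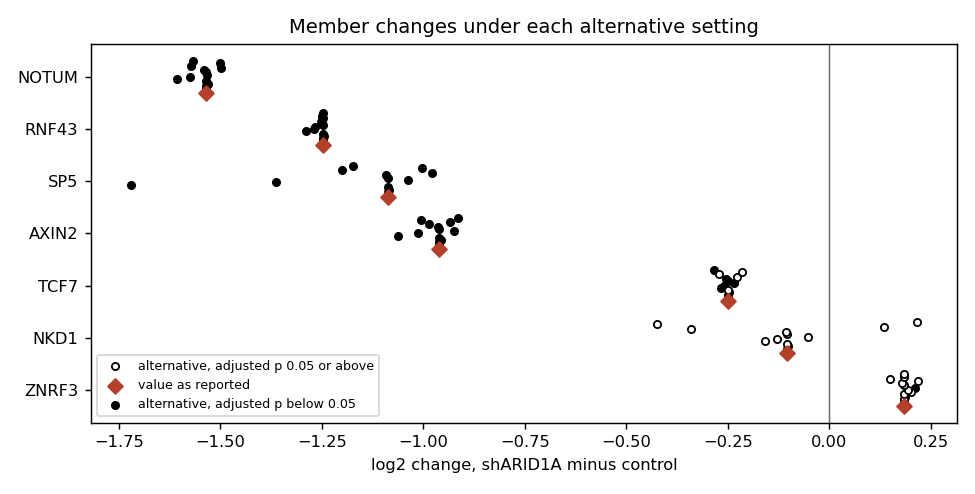
Log2 change, shARID1A minus control, of the 7 tested genes as reported (red diamonds) and under each alternative of filter, pseudocount, scaling, model or left-out library (circles, filled where the limma adjusted p was below 0.05; vertical offset only for legibility). NOTUM, RNF43, SP5 and AXIN2 stay filled throughout, with AXIN2 between -1.06 and -0.92 and SP5 between -1.72 and -0.98, while ZNRF3 stays between 0.15 and 0.22, and NKD1 lies on both sides of 0.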

How the data were processed

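Libraries were made from total RNA with the NEBNext Ultra kit, per the labels' protocols. Expression was deposited by the authors as FPKM, 1 table per library, per the file headers. STAR, Cufflinks and GRCh38 (hg38) are named per the submitters' processing notes, while versions, annotation and strand setting were not given in the sources used here.

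Each table held 60811 rows. Second copies of 45 pseudoautosomal features were dropped and 2347 values under 1e-09 were set to 0. Depth was estimated from GENCODE genes with a single long transcript, where low FPKM values step in whole fragments. It came to about 75750000 and 74000000 fragments in shARID1A libraries and 69000000 and 70750000 in control libraries, with 83.4% to 86.5% of those values whole within 0.1 fragment. On average over genes, replicates differed by more than counting noise (mean chi-square per gene 3.47 for shARID1A, 3.99 for control), so none was treated as a duplicate. The median chi-square was lower, at 0.965 for shARID1A and 1.149 for control.

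FPKM values are not counts, so limma 3.58.1 in R 4.3.3 (eBayes with trend) was run on log2(FPKM + 1) of features with a mean of at least 1 FPKM, with Benjamini-Hochberg adjustment over all of them. An exact two-sided permutation test of 2 libraries against 2 cannot go below p = 0.333.

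The members and lists were chosen with earlier results of these data known. Named genes are all members, ARID1A, up to 3 called genes of each list by absolute log2 change (the highest mean where none is called), the 3 profiles nearest to the member with the largest fall, and called neighbours of ASCL2; LGR4, CTNNB1 and the further genes named to complete small counts were chosen after their values were known. Promoter windows are from RefSeq (GRCh38.p14). Alternatives covered pseudocount, filter, scaling, trend, a replicate block and each library left out.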

Additional observations from a re-analysis of the deposited data

How the results depend on the processing

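Of the 7 tested members, 4 to 6 were called under all 14 alternatives, and NOTUM, RNF43 and AXIN2 were called lower in each. SP5 was called lower in the 13 alternatives that tested it. The filter changes which genes are tested: 5 members with the filter at 5 FPKM and 10 with no filter, with 4 called in each. Over all features, 9853 were tested with the filter at 5 FPKM and 29031 with no filter. NKD1 was never called; its log2 change was 0.13 without control replicate 2 and 0.22 without shARID1A replicate 2, within -0.42 to 0.22 over the left-out libraries. With any 1 library left out, 4 to 5 members were called, the log2 change of ARID1A lay between -0.78 and -0.60, and calls over all tested features fell to between 2146 and 3368, against 5046 with all libraries. With no filter there were 2786 calls over all features, and the calls of TCF7, TCF7L2, HIPK2, CSNK1A1, CSNK1D, DVL1, DVL2, TNKS, FZD1, FZD5, NKD2, PROM1, MEX3A, CEACAM1, DPP4, CD68, SKP1, IGF2, TSSC4 and RPL26P30 were among those lost. Calls over the 6 lists of other pathway, crypt and differentiation genes numbered 38, against 23 with no filter and 19 to 28 with a library left out. The 38 calls were among 85 tested genes of these lists, beside 37.1% of all tested features called in either direction. Of the tested neighbours of members, 48 of 119 were called within 500 kb. Within 250 kb, where fewer features were tested, 26 of 69 were called, beside 37.1% of all tested features. The cause of the other shifts was not tested. Replicate numbers do not pair the libraries by any label, and same-numbered libraries did not deviate together (correlation -0.01). With a replicate block 4126 features, 5 members and 34 genes of the other lists were called, so no count moved by over 1.5 times. Leaving out a library leaves a group with 1 sample, which is assumed to vary like the other group. The depth limits LGR5, ASCL2 and LEF1, whose highest values rest on about 5.00 fragments or fewer. The comparison of protein sequences was not run.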

Other observations

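The surroundings of the members were looked at for neighbours that moved. Within 500 kb of the 10 genes, 119 features were tested, of which 25 fell (21%) and 23 rose (19.3%), beside 18.9% and 18.2% of all tested features. LEF1 had 6 tested neighbours, of which 4 fell and 1 rose. These were HADH (log2 change -0.71), SGMS2 (-0.38), CYP2U1 (-0.29) and PAPSS1 (-0.26), and OSTC, which rose (0.15). Whether these calls held with a library left out was not examined. ASCL2, itself at or near 0, lies on chromosome 11 from 2268495 to 2270952 beside imprinted genes. Of its 8 tested neighbours, 5 were called, beside 37.1% of all tested features called in either direction. H19, an imprinted noncoding RNA gene 267025 bases away, was at 31.4 and 31.0 FPKM in shARID1A cells and 0.570 and 0.811 FPKM in control cells (log2 change 4.26, limma adjusted p = 1.67e-04). H19 reached the filter mean of 1 FPKM only through the shARID1A libraries. With the filter at 0.1 FPKM, which both groups exceeded, its limma adjusted p was 4.70e-04. IGF2, a growth factor gene between ASCL2 and H19, fell to 11.1 and 9.42 FPKM in shARID1A cells, against 14.7 and 14.4 FPKM in control cells. CD81, a tetraspanin gene on the other side, fell to 228 and 235 FPKM in shARID1A cells, against 271 and 268 FPKM in control cells. TSSC4 and the pseudogene RPL26P30 rose by a log2 of 0.20 and 0.36. The calls of IGF2 (adjusted p = 0.0820 and 0.0732) and CD81 (0.0824 and 0.0726) were lost without control replicate 1 or 2. Those of TSSC4 and RPL26P30 were lost without any 1 library (adjusted p of 0.0814 to 0.145 and 0.103 to 0.124), while H19 kept its call.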
